A study of Mus musculus with 14 samples.

Results

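The far intergenic H3K27ac regions of these macrophages were 1067 stretches of the mouse genome (build mm10) that carried the active histone mark and lay more than 50 kb from the span of every protein-coding gene. They were chosen by the measured values themselves. In each of 7 H3K27ac libraries the 30000 highest-scoring peak summits were kept, with ties taken in file order, widened by 250 bp to each side and joined over libraries on chromosomes 1 to 19 and X, which gave 60208 regions. Of these, 22657 had a kept summit in 2 to 6 of the 7 lists, and 1067 of those passed the distance limit. Among the far intergenic regions 426 were in 2 lists, 236 in 3, 168 in 4, 125 in 5 and 112 in 6. The rule left out 114 far regions in all 7 lists and 2263 in 1 list only. The 21590 regions in 2 to 6 lists within 50 kb of a gene are called near regions here.

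The cells were tumour-associated macrophages, sorted by flow cytometry on the myeloid surface protein CD11b, from brain tumours grown in NSG mice from implanted human T387 glioblastoma cells. NSG mice lack mature T, B and natural killer cells, so the macrophages came from hosts without adaptive immunity. Mice in the drug group received pracinostat, an inhibitor of histone deacetylases, by mouth at 30 mg/kg on 4 days per week for 3 weeks from day 7 after implantation. Control mice received the solvent mixture, which contained DMSO, without the drug. The labels' text on preparing the drug gives 3 mg/kg instead, and which dose was given is not settled by the labels. CUT&Tag, in which an antibody tethers a transposase that cuts and tags nearby DNA, was run after light fixation with 0.1% formaldehyde. There were 3 H3K27ac libraries from DMSO mice and 4 from pracinostat mice, with as many libraries made with non-specific IgG. The labels call them biological replicates without saying whether each was a single animal.

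Acetylation of lysine 27 of histone H3 marks active promoters and active enhancers. Enhancers are stretches of DNA bound by transcription factors that raise transcription from a promoter, often across long distances and over genes in between. Histone deacetylases remove the mark, and inhibitors of these enzymes raise acetylation in cells. In macrophages, the lineage factor PU.1 opens many enhancers together with C/EBP, AP-1, RUNX and IRF factors, and long stretches without protein-coding genes beside genes such as Cebpb, Zeb2 and Myc hold enhancers used in blood cells. Such stretches also hold genes for long non-coding RNAs (lncRNAs), many of which start inside enhancers.

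Sequence could be read where a far intergenic region overlapped the start of an annotated non-coding gene, because promoter windows from 250 bases before to 50 bases after a gene start were at hand (RefSeq, GRCm38.p6, the assembly that mm10 names). In all, 53 far intergenic regions overlapped 63 windows of 53 genes, all of them lncRNA genes, and 38 windows lay wholly inside a region. The 8 windows below were chosen after the values were seen, as examples. Of these, 4 fall in intervals with many regions described next (Gm45805, Gm32287, LOC108167736 and Lncpint), 2 lie beside Ptprc and Id2 (Gm4258 and Gm46343), and Mexis and Mirt1 are lncRNA genes with names of their own. Each is written 5′ to 3′ on the strand of its gene, with matches to the macrophage factor motifs in capitals.
Gm45805, chr8:126758304-126758603, minus strand: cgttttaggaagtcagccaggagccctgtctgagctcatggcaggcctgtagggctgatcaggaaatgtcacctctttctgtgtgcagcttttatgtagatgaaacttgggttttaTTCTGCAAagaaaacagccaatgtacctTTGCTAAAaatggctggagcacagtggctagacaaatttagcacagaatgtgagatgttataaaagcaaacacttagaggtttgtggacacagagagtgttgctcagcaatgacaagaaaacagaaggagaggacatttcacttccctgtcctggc
Gm32287, chr2:167776205-167776504, minus strand: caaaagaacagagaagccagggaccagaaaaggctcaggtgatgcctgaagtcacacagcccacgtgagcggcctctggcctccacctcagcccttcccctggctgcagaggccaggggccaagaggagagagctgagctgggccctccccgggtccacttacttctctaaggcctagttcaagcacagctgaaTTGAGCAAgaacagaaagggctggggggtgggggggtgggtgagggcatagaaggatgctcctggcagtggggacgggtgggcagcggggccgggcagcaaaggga
LOC108167736, chr1:154117804-154118103, minus strand: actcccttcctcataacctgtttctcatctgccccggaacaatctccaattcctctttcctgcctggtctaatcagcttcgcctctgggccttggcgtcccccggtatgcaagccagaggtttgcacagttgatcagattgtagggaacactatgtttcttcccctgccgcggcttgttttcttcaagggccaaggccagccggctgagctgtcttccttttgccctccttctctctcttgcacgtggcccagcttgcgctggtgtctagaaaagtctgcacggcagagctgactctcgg
Lncpint, chr6:31218425-31218724, minus strand: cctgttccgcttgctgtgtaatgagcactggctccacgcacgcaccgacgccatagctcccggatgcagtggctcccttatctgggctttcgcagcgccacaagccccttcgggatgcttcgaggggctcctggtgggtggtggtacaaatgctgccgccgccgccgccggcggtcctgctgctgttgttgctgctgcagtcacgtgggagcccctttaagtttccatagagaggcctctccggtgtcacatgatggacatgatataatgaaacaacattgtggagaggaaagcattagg
Mexis, chr4:53270183-53270482, minus strand: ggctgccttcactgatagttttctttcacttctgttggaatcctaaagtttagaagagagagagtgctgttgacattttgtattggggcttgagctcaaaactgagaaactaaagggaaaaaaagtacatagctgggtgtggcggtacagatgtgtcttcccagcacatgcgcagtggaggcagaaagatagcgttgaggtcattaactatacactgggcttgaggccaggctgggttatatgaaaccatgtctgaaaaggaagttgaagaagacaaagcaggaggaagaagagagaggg
Gm4258, chr1:137898272-137898571, plus strand: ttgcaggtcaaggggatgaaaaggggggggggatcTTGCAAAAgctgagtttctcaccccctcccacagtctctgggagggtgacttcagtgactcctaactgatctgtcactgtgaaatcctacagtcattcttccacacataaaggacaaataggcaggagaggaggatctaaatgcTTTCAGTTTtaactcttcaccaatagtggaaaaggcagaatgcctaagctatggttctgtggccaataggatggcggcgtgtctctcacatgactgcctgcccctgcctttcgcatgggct
Gm46343, chr12:25303526-25303825, plus strand: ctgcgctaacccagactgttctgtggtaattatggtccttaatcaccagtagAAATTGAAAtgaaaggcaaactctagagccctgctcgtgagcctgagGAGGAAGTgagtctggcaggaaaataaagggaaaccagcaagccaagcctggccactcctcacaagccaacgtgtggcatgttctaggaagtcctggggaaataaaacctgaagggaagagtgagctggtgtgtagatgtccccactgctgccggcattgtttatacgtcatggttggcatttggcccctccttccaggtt
Mirt1, chr19:53464747-53465046, minus strand: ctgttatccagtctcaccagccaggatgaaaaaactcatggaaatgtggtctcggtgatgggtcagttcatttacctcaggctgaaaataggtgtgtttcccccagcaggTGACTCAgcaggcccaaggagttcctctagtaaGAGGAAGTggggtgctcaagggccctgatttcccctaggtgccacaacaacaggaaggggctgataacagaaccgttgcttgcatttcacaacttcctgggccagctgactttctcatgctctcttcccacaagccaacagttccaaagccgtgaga

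The last 82 bases of the Gm45805 window overlap a far intergenic region between Irf2bp2 and Tomm20. The window holds 2 C/EBP matches, at bases 117 and 145 counted from its 5′ end, and both lie outside that region. A summit stood inside the window in 0 of 7 H3K27ac libraries. Gm32287 starts between Cebpb and Ptpn1. Its window holds 1 C/EBP match at base 195, and 5 of the 7 H3K27ac libraries had a summit inside the window. The Gm4258 window, between Nr5a2 and Ptprc (the leukocyte phosphatase CD45), holds a C/EBP match at base 36 and an IRF match at base 180, and 4 of 7 libraries had a summit inside it. Gm46343, between Id2 and Rnf144a, has an IRF match at base 53 and a PU.1 match at base 100, with a summit inside the window in 2 of 7 libraries. The Mirt1 window has an AP-1 match at base 111 and a PU.1 match at base 144, with a summit inside it in 4 of 7 libraries. No match was found in the windows of LOC108167736, of Lncpint, a transcript known to be induced by p53, or of Mexis, a lncRNA known to support Abca1 transcription in macrophages. LOC108167736 and Lncpint each had a summit inside the window in 4 libraries, and Mexis in 1.

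Motifs were searched on both strands as GAGGAAGT for PU.1, TGANTCA for AP-1, TTGCNNAA for C/EBP, AAANTGAAA for IRF and TGTGGTTT for RUNX, where N is any base. None of the printed matches overlaps another. With 1 window per gene, an AP-1 match stood in 10 of the 53 windows (18.9%), against 7.98% of the 26794 genes with a window. For C/EBP there were 9 of 53 (17.0%) against 10.8%. PU.1 and IRF matches stood in 4 windows each (7.55%), against 3.30% and 2.61% of all genes. RUNX letters were in 0 of 53 windows and in 1.87% of all. All 53 genes are lncRNA genes, and the share among lncRNA genes with a window was above that among all genes for every motif. All genes are therefore not a matched base. The choice of window differed as well. Each of the 53 genes entered with the window that held a summit in the most libraries, then by overlap with the region. All genes, and lncRNA genes among them, entered with their first listed window. Against lncRNA genes the 53 windows still had the higher share for AP-1, C/EBP, PU.1 and IRF, and the lower for RUNX. These are letter matches, described without a test, so no enrichment is read from them. Most far intergenic regions have no window.

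The labelled cell type was checked at its defining genes. Between 7 and 9 of 10 macrophage genes (Spi1, Csf1r, Itgam and others) had a kept summit within 1 kb of a gene end in every H3K27ac library. The counts were 0 to 2 of 10 for neutrophil genes, 0 to 2 of 8 for oligodendrocyte genes, 0 to 1 of 10 for neuron and astrocyte genes, 0 to 1 of 8 for lymphocyte genes and 0 to 2 of 6 for endothelial and mural genes. The labels set a target of 10000000 reads per library. The numbers reached are not stated in the sources used here, so only the length of a summit list speaks for depth. H3K27ac lists held 53503 to 291042 summits and IgG lists 2194 to 18517. DMSO replicate 2 stood apart with the shortest H3K27ac list. Of its 30000 kept summits 11425 shared its lowest score, and because ties were taken in file order these lie on chromosomes 1 and 10 to 15 only. The other lists had at least 208401 summits, and their lowest kept scores were between 16.8 and 26.0 on the −log10 scale, against 1.43 in DMSO replicate 2. The share far from genes, the limma results and the counts for 1 treatment only are also given without this library.

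Far intergenic regions were found in every library. The kept lists held a summit in 454, 329 and 533 of the 1067 regions in DMSO replicates 1 to 3, and in 583, 574, 490 and 566 in pracinostat replicates 1 to 4. DMSO replicate 2 was lowest, and 490 in pracinostat replicate 3 lay below the 533 of DMSO replicate 3, so the groups overlapped. In the whole lists, a summit of any score stood in 87.3%, 42.4% and 89.8% of the regions in the DMSO libraries and in 94.8%, 95.2%, 89.3% and 94.4% in the pracinostat libraries. All 7 whole lists marked 328 regions (30.7%), and a further 379 (35.5%) were marked in all but DMSO replicate 2. DMSO replicate 2 had a summit in 452 regions in its whole list, so in that library most of the regions it did not keep had no summit of any score.

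**Figure D1:**
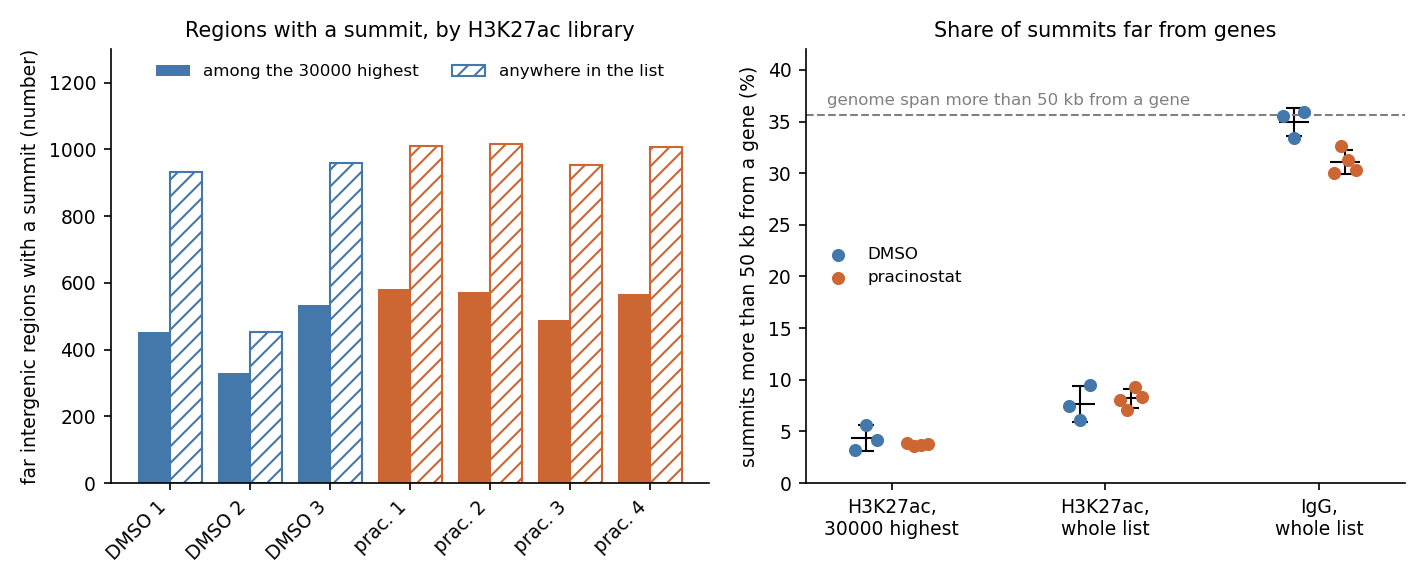
Left, number of the 1067 far intergenic regions with a summit in each H3K27ac library, among the 30000 highest (filled bars) or anywhere in the list (hatched bars), DMSO in blue and pracinostat in orange. Right, percent of summits more than 50 kb from a gene per library (points), with mean ± SD per treatment in black and the share of the genome span as a dashed line. H3K27ac shares lie between 3.21% and 9.46%, and IgG shares between 30.1% and 36.0%.

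Strong H3K27ac summits were rarely far from genes. The genome span more than 50 kb from any protein-coding gene was 35.6%, and 30.1% to 36.0% of IgG summits lay there. Of H3K27ac summits, the share was 3.06% ± 0.306 (SD, n = 7) among the 10000 highest in each list and 4.48% ± 1.07 (n = 7) among the next 20000. It was 6.37% ± 0.886 (n = 6) from rank 30001 to 100000 and 9.66% ± 0.863 (n = 6) from rank 100001 to 200000, which DMSO replicate 2 did not reach. The lower a summit stood in its list, the more often it was far from genes, and even the weakest of these classes stayed well under the IgG share. These shares are descriptions, since score rank chose the regions.

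Median distance from a far intergenic region to the nearest protein-coding gene was 96523 bp. There were 514 regions (48.2%) beyond 100 kb, 134 (12.6%) beyond 200 kb and 14 (1.31%) beyond 500 kb. Width had a median of 712 bp, against 751 bp for the near regions. Chromosome 10 held 132 of the regions, chromosome 2 held 129 and chromosome 13 held 99, while the gene-dense chromosomes 11 and 19 held 17 and 10. As a share of all regions in 2 to 6 lists this was 10.1% on chromosomes 10 and 13 and 0.859% on chromosome 11. Chromosomes 1 and 10 to 15 held 47.0% of the far intergenic regions, and 44.6% of the 932 regions that the same rule gave without DMSO replicate 2 (2 to 5 of 6 lists). Of the 1067 regions, 922 (86.4%) overlapped one of those 932.

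Many of the regions had others close by. Joined across gaps of 25 kb or less, they formed 473 clusters, of which 260 were lone regions and 123 had 3 or more. Those 123 held 627 regions (58.8%). The largest cluster had 19 regions over 121311 bp on chromosome 8 (chr8:126755623-126876933) between Irf2bp2, a corepressor that binds IRF2, and Tomm20, a receptor for protein import into mitochondria. Next came 17 regions over 119844 bp on chromosome 15 (chr15:59712115-59831958), 55016 bp beyond Trib1, a pseudokinase that directs the breakdown of C/EBP alpha. Another 17 regions over 70807 bp on chromosome 17 (chr17:84057974-84128780) lay between Haao, an enzyme of tryptophan breakdown, and Zfp36l2, an RNA-binding protein that destabilises AU-rich messages. Regions of a cluster share their neighbourhood and are not independent of each other.

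Counted by the interval between neighbouring protein-coding genes, 317 intervals held the regions, and 27 with 10 or more each held 373 of them (35%). The 10 intervals with most regions were picked after their counts were seen. Irf2bp2 to Tomm20 led with 22 regions, at 9.30 regions per 100 kb of sequence beyond the 50 kb limit. Kept summits there numbered 49, 19 and 58 in the DMSO libraries and 47, 49, 34 and 31 in the pracinostat libraries. DMSO replicates 2 and 3 were the lowest and the highest of the 7, so the treatments overlapped. IgG lists held at most 1 summit in the same stretch.

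Cebpb to Ptpn1 was more compact, with 16 regions at 11.4 per 100 kb. Cebpb encodes a C/EBP factor that drives inflammatory gene expression in macrophages, and Ptpn1 a phosphatase that dampens receptor signalling. This interval held 48, 19 and 43 kept summits in the DMSO libraries and 33, 45, 33 and 35 in the pracinostat libraries. In Haao to Zfp36l2, with 18 regions, the numbers were 35, 17 and 48 against 52, 43, 24 and 32. DMSO replicate 2 was the lowest library in both intervals, and the pracinostat values fell within the range of the DMSO values except for 52 in pracinostat replicate 1.

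Trib1 to 4933412E24Rik held 20 regions, Klf14 to Mkln1 and Marcks to Rfpl4b 19 each, and Ly86 to Rreb1 17. Marcks encodes an actin-binding substrate of protein kinase C that is abundant in macrophages, and Ly86 the MD-1 protein that pairs with the receptor RP105. Beside Marcks, the DMSO libraries had 10, 14 and 9 kept summits and the pracinostat libraries 19, 17, 18 and 18. These are the only values among the 10 intervals that did not overlap between treatments. The interval was picked from the same counts, and the values are given without a test. The share of all 317 intervals without overlap was not counted, so nothing is read from this separation. In the whole lists the same stretch held 75, 14 and 127 summits in the DMSO libraries against 110, 104, 125 and 139, which overlapped. The whole list of DMSO replicate 2 had no more than its 14 kept summits there, since chromosome 10 is among those its ties filled. IgG summits in this wide interval numbered 14, 6 and 8 in the DMSO libraries and 0, 9, 5 and 2 in the pracinostat libraries. Outside the 10, the treatments did not overlap for Ctnna3 to Reep3 either (12 regions, also on chromosome 10), in the opposite direction. Kept summits there were 13, 16 and 17 in the DMSO libraries and 11, 9, 11 and 10 in the pracinostat libraries. Whole-list counts overlapped there too, and nothing is read from this interval either.

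**Figure D2:**
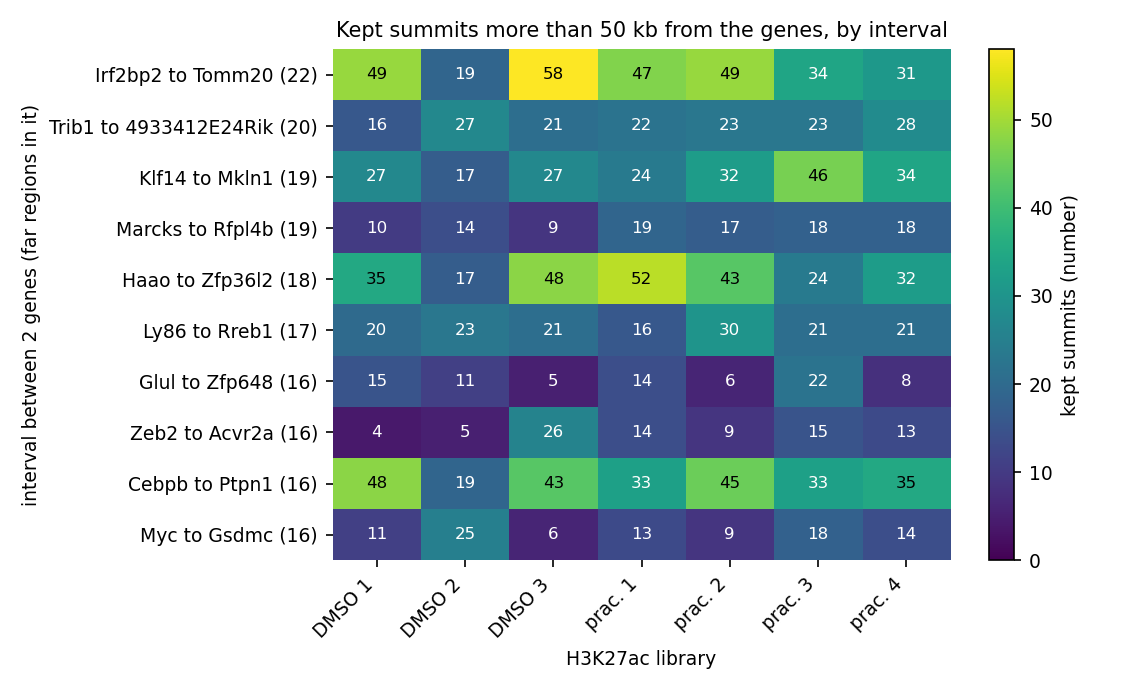
Number of kept summits more than 50 kb from both genes in the 10 intervals with most far intergenic regions (rows, number of regions in brackets), for each H3K27ac library (columns). DMSO replicate 2 is lowest for Irf2bp2 to Tomm20 (19) and Cebpb to Ptpn1 (19). Among these 10, the treatments do not overlap for Marcks to Rfpl4b only, whose whole-list counts do overlap.

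The last 3 of these intervals flank Glul (glutamine synthetase), Zeb2 and Myc, with 16 regions each. Zeb2 encodes a repressor that maintains macrophage identity, and the gap to the next gene, Acvr2a, spans 3697 kb, so the density was only 0.445 regions per 100 kb. Kept summits in it were 4, 5 and 26 in the DMSO libraries and 14, 9, 15 and 13 in the pracinostat libraries. IgG lists held 20, 21 and 15 summits in this gap in the DMSO libraries and 3, 11, 4 and 2 in the pracinostat libraries. In DMSO replicates 1 and 2 the IgG summits thus outnumbered the kept H3K27ac summits. Past Myc, the growth-driving transcription factor, kept summits were 11, 25 and 6 in the DMSO libraries and 13, 9, 18 and 14 in the pracinostat libraries. IgG summits there were 12, 8 and 4 against 0, 4, 4 and 3. The highest of the Myc values belonged to DMSO replicate 2, whose ties lie on chromosome 15 too. With ties drawn at random, the same rule gave 1059 regions and all of the 10 leading intervals, led by Klf14 to Mkln1, and without DMSO replicate 2 it gave 9 of the 10.

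Genes of macrophage transcription factors often bordered these stretches. Of a list of 50 such genes, 20 (40%) were a flanking gene, meaning the nearest protein-coding gene on either side, of 133 far intergenic regions (12.5%). Among all 21627 protein-coding genes, 610 (2.82%) flanked a region. Only a gene beside a gap wide enough can do so, which held for 31 of the 50 and for 4506 of all genes, and on that base the shares were 64.5% and 13.5%. Cebpb, Myc and Zeb2 flanked 16 regions each, Id2 (an inhibitor of E-protein factors) and Runx1 (a factor of blood cell formation) 11 each, Jun and Klf6 9 each, Maf 8, Nfe2l2 (the oxidative stress factor NRF2) 7, and Atf3, Klf4 and Mef2a 5 each. Mef2c had 4, Sall3 3, Bach2 and Fos 2 each, and Bhlhe40, Ets2, Runx3 and the microglial factor Sall1 1 each. The other 30 flanked none.

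Of 51 surface and signalling genes of macrophages 9 flanked 32 regions (17.6% of the genes, and 60% of the 15 beside a wide gap, a share close to that of the transcription factor genes): Cd83 8, Thbs1 7, Cd47 and Ptprc 4 each, Cxcr4 and Tgfbr2 3 each, and Arg1, Cd44 and Itga4 1 each. Cd47 encodes the signal by which cells resist phagocytosis. Of 30 transcription factors of neural and glial cells, 27 sat beside a wide gap and 2 (7.41% of those) flanked a region, Sox4 with 5 and Sox9 with 1. The lists were drawn up with earlier results of these data known, and being a neighbour does not show which gene a region acts on.

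The rank of a region in a library is given as a percentile of its highest summit score in the whole list, among the 48069 regions that 3 or more of the 7 lists marked, where 100 is the highest and regions without a summit tie at the bottom. That tie stands at a percentile of 25.2 in DMSO replicate 2, which had no summit in 50.3% of the ranked regions, and at 7.40 to 10.7 in the other libraries. Many of the summits of DMSO replicate 2 had its lowest score, and these share a percentile of 60.8. Of the 1067 far intergenic regions 1062 were ranked. Their median percentile was 54.1, 25.2 and 61.8 in the DMSO libraries and 61.8, 61.5, 56.4 and 59.7 in the pracinostat libraries, and that of the near regions 63.0, 60.8 and 58.9 against 61.8, 64.0, 59.0 and 59.7. The far intergenic regions had middling scores in every library, except that in DMSO replicate 2 their median was a region without a summit. The rule sets this level in part, since it leaves out regions in all 7 lists and in 1 list only. The median of the mean percentile was 53.7 for far intergenic and 56.8 for near regions. It was 86.9 for far regions in 7 lists and 31.5 for those in 1 list that were ranked.

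For each macrophage transcription factor gene the flanking region with the highest mean percentile was followed, for the 10 highest. The region 113933 bp from Cebpb (chr2:167804365-167806936) stood at 86.9, 60.8 and 94.4 in the DMSO libraries and at 81.0, 86.8, 94.6 and 89.8 in the pracinostat libraries. All of these values but that of DMSO replicate 2 were above 80. The region 118601 bp from Zeb2 (chr2:45236043-45237118) stood at 91.5, 25.2 and 97.8 against 78.8, 83.0, 98.1 and 97.8, with no summit in DMSO replicate 2. Beside Jun, a subunit of AP-1, a region inside the lncRNA gene Junos (chr4:95161247-95161970) stood at 98.2, 60.8 and 97.7 against 89.0, 86.8, 93.0 and 45.6. None of these regions had an IgG summit in any library, and their treatment groups overlapped.

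The region beside Nfe2l2 (chr2:75763054-75763774) ranged from 49.3 to 91.0 in the DMSO libraries and from 73.3 to 99.0 in the pracinostat libraries, and the region beside Fos (chr12:85532022-85533658) from 75.0 to 86.8 and from 58.0 to 93.0. Runx1 had its highest region 202284 bp away (chr16:93028358-93029144), between 60.8 and 91.7 in the DMSO libraries and between 54.8 and 94.2 in the pracinostat libraries. The region 90765 bp from Klf4 (chr4:55623240-55623854) ranged from 71.2 to 96.8 against 10.7 to 87.7, with no summit in pracinostat replicate 3. Inside the lncRNA gene Pvt1, 52718 bp from Myc, a region (chr15:62043079-62044389) ranged from 50.9 to 75.0 against 47.9 to 96.8. The spread within a treatment was wide in each of these, and the groups overlapped.

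Atf3, a stress-induced factor, and Maf, a factor of mature macrophages, closed the 10. The region between Atf3 and Nenf (chr1:191254217-191254962) stood at 82.1, 25.2 and 44.5 in the DMSO libraries and at 61.8, 88.0, 96.3 and 91.6 in the pracinostat libraries. The region between Wwox and Maf, 274249 bp from Maf (chr8:115427939-115429004) stood at 88.1, 86.6 and 80.0 against 41.2, 61.5, 38.1 and 87.4. In each region 3 pracinostat libraries lay beyond all DMSO values and 1 lay among them, and limma's adjusted p was 0.891 for each.

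**Figure D3:**
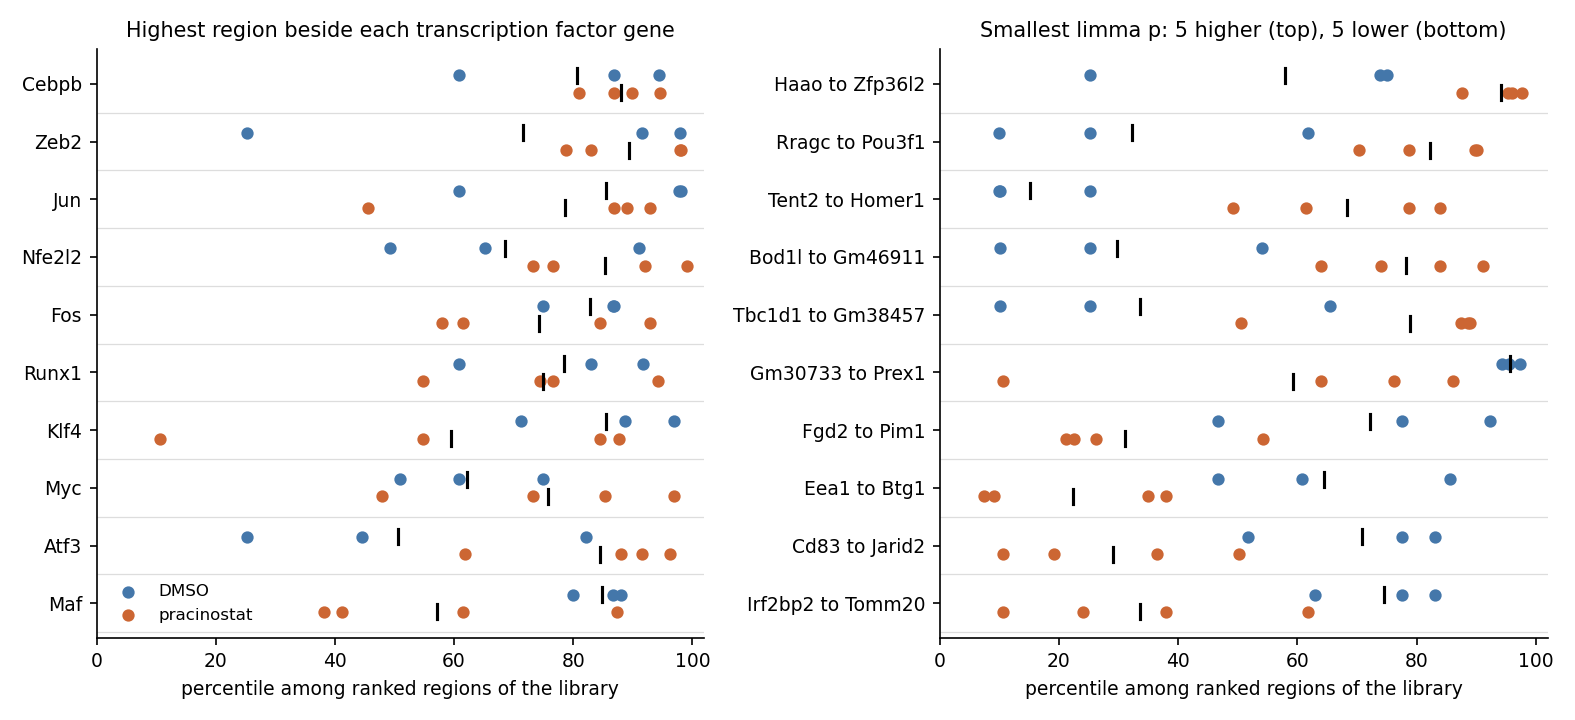
Percentile of 20 far intergenic regions in each H3K27ac library (points, DMSO in blue and pracinostat in orange, black ticks for group means). Left, the highest region beside each of 10 macrophage transcription factor genes, where the treatments overlap; right, the 5 regions with the smallest limma p in each direction, named by their flanking genes.

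The 6 regions of highest mean percentile over the libraries lay in 5 intervals. Highest was a region 52866 bp from Eed, a Polycomb subunit, inside the lncRNA gene E230029C05Rik (chr7:90033842-90034603). Its percentiles were 99.5, 60.8 and 98.4 in the DMSO libraries and 98.5, 96.1, 96.6 and 93.0 in the pracinostat libraries. A region inside Gm31718 between Irf2bp2 and Tomm20 (chr8:126805605-126808051) stood at 98.0, 93.8 and 93.5 against 98.3, 95.5, 96.6 and 52.7. The region at Gm45805 in the same interval, which the window printed above overlaps only in part, stood at 82.1, 60.8 and 90.3 against 91.1, 97.5, 85.3 and 88.7. Of all 6, the one between Nxph1 and Ndufa4 (chr6:10690431-10690989) was by far the most remote, 1209383 bp from Ndufa4, with percentiles from 60.8 to 95.3 in the DMSO libraries and from 68.8 to 99.3 in the pracinostat libraries. The other two lay between Haao and Zfp36l2 (chr17:84099487-84102264), from 60.8 to 99.3 and from 80.7 to 96.2, and between Itm2b and Med4 (chr14:73441811-73442471), from 47.7 to 93.5 and from 76.6 to 98.8. All 6 were in 6 of 7 kept lists and had a summit in all 7 whole lists.

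The 3 regions farthest from any protein-coding gene had middling ranks. The most distant lay 1411419 bp from Cntnap5b (chr1:101902018-101902574), with percentiles of 60.5, 25.2 and 56.5 in the DMSO libraries and 66.1, 88.0, 44.7 and 78.9 in the pracinostat libraries. The next lay 1325547 and 1253268 bp from Zeb2, in the gap to Acvr2a (chr2:46442989-46443612 and chr2:46370710-46371477), with mean percentiles over 7 libraries of 60.8 and 66.5. At the distance limit itself, the regions just outside lay 50003 bp from Foxo3 and 50004 bp from Kctd12, in 3 and 2 lists, with mean percentiles of 43.1 and 31.6. Those just inside the limit lay 50000 bp from Psd2 and 49982 bp from Anxa3, in 6 and 4 lists, with mean percentiles of 66.6 and 61.1.

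Non-coding genes ran through many of the regions. A lncRNA gene overlapped 404 of the 1067 (37.9%), against 10.7% of the near regions, most of which touch a protein-coding gene. Of the far regions in all 7 lists 49.1% overlapped a lncRNA gene, and of those in 1 list 27.5%. Genome positions more than 50 kb from protein-coding genes lay in a lncRNA gene in 11% of cases. No far intergenic region overlapped a miRNA gene, and 8 overlapped a pseudogene. Overlap thus went up with the number of lists, and regions in more lists are also wider (median 501, 712 and 1384 bp for 1, 2 to 6 and 7 lists), whose part in the overlap was not tested.

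**Figure D4:**
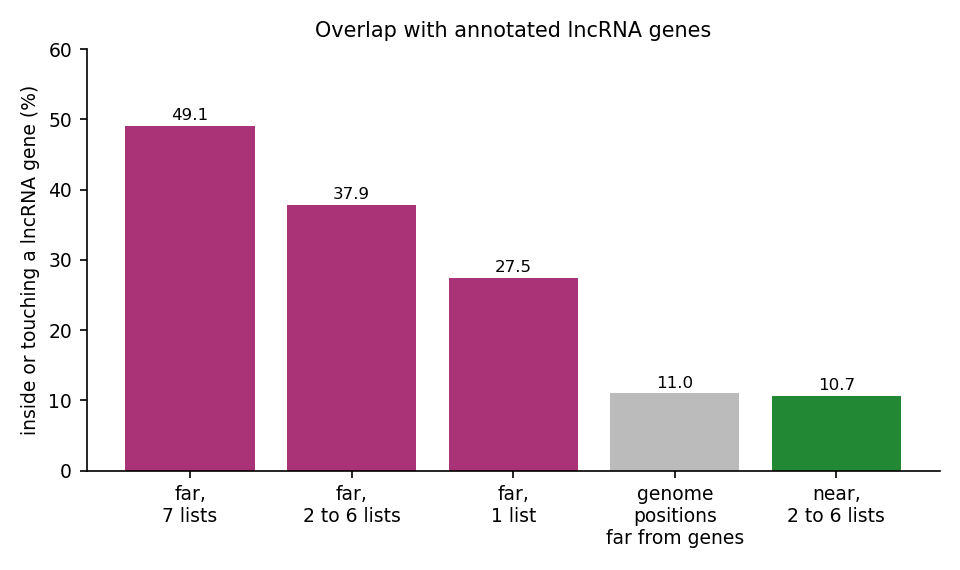
Percent of regions that overlap an annotated lncRNA gene, for far regions kept in 7, in 2 to 6 and in 1 of the H3K27ac lists, for genome positions more than 50 kb from protein-coding genes, and for near regions. The bars run from 49.1% for far regions in 7 lists to 10.7% for near regions.

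In all, 206 lncRNA genes overlapped a far intergenic region, 17 of them 5 or more. Pvt1, the long non-coding neighbour of Myc, overlapped 14, Gm31718 beside Tomm20 13, LOC108167736 beside Glul 12 and Lncpint beside Mkln1 10. Morrbid, a lncRNA known to control the lifespan of myeloid cells through the neighbouring cell death gene Bcl2l11, overlapped 9, as did A930011G23Rik and Gm35154. In the interval between Bcl2l11 and Spdye4c, which holds Morrbid and 11 of the regions, kept summits numbered 15, 10 and 18 in the DMSO libraries and 23, 11, 12 and 15 in the pracinostat libraries. The treatments overlapped there, and IgG lists held at most 1 summit.

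Whether pracinostat moved acetylation toward or away from gene-poor stretches was asked first over all kept summits. The share more than 50 kb from genes was 3.21%, 5.65% and 4.18% in DMSO replicates 1 to 3 and 3.88%, 3.63%, 3.71% and 3.79% in pracinostat replicates 1 to 4. Means were 4.35% ± 1.23 (SD, n = 3) and 3.75% ± 0.108 (n = 4), a difference of -0.599 percentage points. All pracinostat values lay inside the DMSO range, and a two-sided exact permutation test over 35 assignments gave p = 0.457, where 0.0286 is the smallest it can give. Without DMSO replicate 2 the difference was 0.0517 percentage points (exact permutation p = 0.8). Without DMSO replicate 1 it was -1.17 (exact permutation p = 0.0667, the smallest it can then give), and the groups no longer overlapped. Without DMSO replicate 3 it was -0.682 (exact permutation p = 0.533). In the whole lists the means were 7.66% ± 1.70 (n = 3) and 8.20% ± 0.902 (n = 4), a difference of the opposite sign that did not pass the test either (exact permutation p = 0.629).

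Region by region, limma was fitted to normal scores of the percentiles over all 48069 ranked regions, with Benjamini-Hochberg adjustment. At an adjusted p under 0.05, 2 of all ranked regions (0.00416%) and 0 of the 1062 far intergenic ones were called, and the lowest adjusted p of a far intergenic region was 0.842. Unadjusted p-values under 0.05 were found for 47 far intergenic regions higher with pracinostat (4.43%, against 2.58% of all ranked regions) and for 13 lower (1.22%, against 2.57%). Near regions had 4.90% and 2.85%. The number of far intergenic regions with a higher mean normal score under pracinostat was 669, against 393 with a lower one. The median difference was 0.162 normal-score units, against 0.105 for near regions and -0.00136 for all. A unit is 1 SD of scores without ties, and ties make the SD within a library smaller, as in DMSO replicate 2. The rule chose the regions from the same lists, 4 of which are from pracinostat, so nothing is read from these counts.

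The counts were closer to even without DMSO replicate 2. Then 28 far intergenic regions (2.64%) were higher and 20 (1.88%) lower at an unadjusted p under 0.05, against 1.77% and 2.42% of all ranked regions. The direction was higher in 584 and lower in 478, the median difference was 0.0712 (0.0106 for near regions), and limma called 0 regions at an adjusted p under 0.05. A gain or loss shared by all regions leaves their ranks as they were and could not be seen here.

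**Figure D5:**
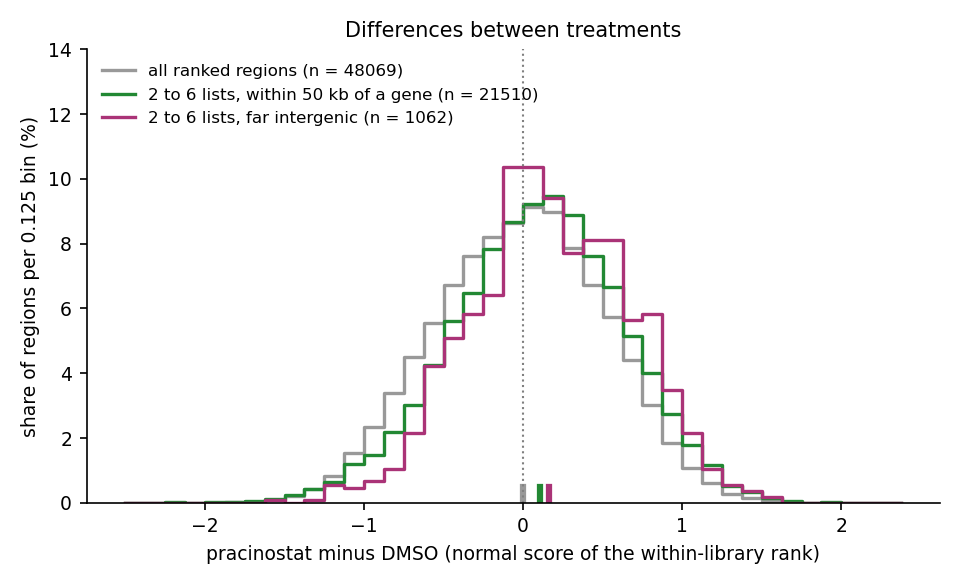
Share of regions (y axis, percent per bin) by limma difference between pracinostat and DMSO in normal-score units (x axis), for all ranked regions, near regions and far intergenic regions, with short bars at the medians. The medians are -0.00136, 0.105 and 0.162, and the 3 distributions overlap over nearly their whole width.

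The far intergenic regions with the smallest limma p are described by their values, since none passed the adjustment. They were picked for a small p from these same values, so groups that do not overlap add no support. The share of all ranked regions without overlap was not counted. In the higher direction, a region inside the lncRNA gene Gm35551 between Haao and Zfp36l2 (chr17:84073813-84074571) stood at 75.0, 25.2 and 73.8 in the DMSO libraries and at 97.7, 96.1, 87.7 and 95.3 in the pracinostat libraries. The groups did not overlap, and the difference was 1.43 ± 0.444 (SE) normal-score units (limma unadjusted p = 0.00126, adjusted p = 0.891). It was 0.988 without DMSO replicate 2, which had no summit there. A region 53595 bp from Rragc, a subunit of the nutrient-sensing Rag complex (chr4:123990592-123991184), stood at 10.0, 25.2 and 61.8 against 90.1, 70.3, 78.8 and 89.8, with no summit in DMSO replicates 1 and 2. A region 50450 bp from Tent2 (chr13:93242885-93243504) had no summit in any DMSO library and stood at 78.8, 61.5, 83.9 and 49.2 with pracinostat.

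The next were a region between Bod1l and Gm46911 (chr5:43048637-43049773), at 54.0, 25.2 and 10.2 against 91.1, 64.0, 83.9 and 74.0, and a region 154622 bp from Tbc1d1, a regulator of glucose transporter traffic (chr5:64506108-64506693), at 65.5, 25.2 and 10.2 against 89.0, 88.6, 50.6 and 87.4. The last of these overlapped between treatments, because pracinostat replicate 3 lay below DMSO replicate 1. Differences for these 4 regions ran from 1.41 to 1.59 normal-score units, and from 1.34 to 1.79 without DMSO replicate 2, with limma's adjusted p at 0.891 for each.

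In the lower direction, a region inside the lncRNA gene 5031425F14Rik, 116961 bp from Prex1, an activator of the Rac GTPases (chr2:166448645-166449384), had the smallest p of all far intergenic regions. It stood at 94.4, 95.6 and 97.3 in the DMSO libraries and at 76.2, 64.0, 10.7 and 86.0 in the pracinostat libraries, with no summit in pracinostat replicate 3. Every pracinostat library lay below every DMSO library, in a region picked for its small p. The difference was -1.51 ± 0.454 (SE) normal-score units (limma unadjusted p = 0.000876, adjusted p = 0.842), and -1.53 without DMSO replicate 2. A region inside Gm36199, 50044 bp from Pim1, a kinase gene induced by cytokines (chr17:29439817-29440741), stood at 46.7, 77.6 and 92.3 against 54.3, 21.1, 22.5 and 26.2, so the groups overlapped through pracinostat replicate 1.

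The other 3 lay between Eea1 and Btg1 (chr10:96267224-96268013), between Cd83 and Jarid2 (chr13:44534284-44535139) and between Irf2bp2 and Tomm20 (chr8:126876366-126876933). Their percentiles were 46.7, 60.8 and 85.7 against 9.04, 7.40, 34.9 and 38.0 in the first. They were 51.8, 77.6 and 83.1 against 36.4, 50.3, 10.7 and 19.1 in the second, and 63.0, 77.6 and 83.1 against 61.8, 24.1, 10.7 and 38.0 in the third. None of the 3 overlapped between treatments, but they were picked for a small p, so this adds no support. The adjusted p from limma was 0.891 for each. Without DMSO replicate 2 the differences of the last 4 regions ran from -1.36 to -1.12 normal-score units.

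Regions kept in the lists of 1 treatment only were counted next. A kept summit in all 4 pracinostat lists and no DMSO list was found for 3 of the 1067 (0.281%), against 0.728% of all regions in 2 to 6 lists. All 3 DMSO lists and no pracinostat list held 4 (0.375%, against 0.406%). The rule used the same lists, so nothing is read from these shares. Leaving out a library also asks for fewer lists. The count with pracinostat only then moved by over 1.5 times for every library. With DMSO only it did so for every DMSO library and for no pracinostat library. With pracinostat only there were 13, 5 and 18 without DMSO replicates 1, 2 and 3, and 10, 14, 15 and 12 without pracinostat replicates 1 to 4. With DMSO only there were 26, 14 and 13 without DMSO replicates 1, 2 and 3, and 4 to 6 without a pracinostat library. With pracinostat only, the regions were those beside Rragc and Bod1l given above and a region inside Gm31258, 184862 bp from the deubiquitinase gene Usp25 (chr16:77301645-77302227). It stood between 25.2 and 41 in the DMSO whole lists and at 76.2, 90.1, 62.0 and 71.2 in the pracinostat ones, so 2 DMSO libraries had a weaker summit there.

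Of the 4 with DMSO only, the 3 with the highest mean percentile under DMSO lay 153343 bp from Irs2, an adaptor of the insulin receptor (chr8:10830805-10831338), in the Irf2bp2 to Tomm20 interval as given above, and inside Gm41309, 60381 bp from Atp6v1c1, a subunit of the vacuolar proton pump (chr15:38600492-38601523). The Irs2 region stood at 67.7, 91.0 and 65.2 against 36.4, 50.3, 50.6 and 49.2. The Atp6v1c1 region stood at 75.0, 60.8 and 76.1 against values from 21.1 to 41.5. All pracinostat libraries had a summit in both of these regions in their whole lists, below the limit of 30000.

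IgG background at the regions was low. An IgG summit stood in 8, 1 and 4 of the 1067 far intergenic regions in the DMSO libraries and in 3, 5, 6 and 5 in the pracinostat libraries. The mean share was 0.428% ± 0.209 (SD, n = 7), against 0.410% ± 0.156 for near regions. Far shares were higher in 4 of 7 libraries, and a two-sided exact sign-flip permutation test on the difference of 0.0189 percentage points gave p = 0.781, where 0.0156 is the smallest it can give. By treatment the shares were 0.406% ± 0.329 (n = 3) and 0.445% ± 0.118 (n = 4), with an exact permutation p = 0.857. In all, 1036 regions (97.1%) had no IgG summit in any library, and 1 had a summit in 2.

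That region (chr7:90041043-90042144) lay 60067 bp from Eed inside E230029C05Rik, some kilobases from the highest-ranked region of all. Its IgG summits were in pracinostat replicates 2 and 3, and its H3K27ac percentiles were 58.3, 77.6 and 86.8 in the DMSO libraries and 84.7, 42.6, 68.8 and 59.7 in the pracinostat libraries. With an IgG summit in 1 library each, a region 162665 bp from Prdm1, the repressor Blimp1 (chr10:44691223-44692238), had H3K27ac percentiles from 85.5 to 96.6 in the DMSO libraries and from 59.0 to 89.8 in the pracinostat libraries. A region 122747 bp from Tbl1xr1, a corepressor subunit (chr3:21952615-21953506), ranged from 65.2 to 86.9 and from 49.2 to 93.5. The part of assay background in the H3K27ac ranks of these 3 regions, and of the other 28 with an IgG summit, was not tested.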

How the data were processed

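CUT&Tag was measured in 14 libraries, 7 with H3K27ac antibody and 7 with IgG. For each, the authors deposited a list of single-base peak summits with a −log10 significance value. The sources used here do not say if it comes from p-values or q-values, nor which threshold or control was used for calling. Bowtie2, MACS2 2.2.9.1, DESeq2, HOMER and the build mm10 are named, without their roles, per the submitters' processing notes. Peaks were called per library. The value grows with depth, so it was used only to rank summits within a list.

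Distances were taken to the spans of 21627 protein-coding genes of RefSeq's GRCm38.p6. In R 4.3.3, limma 3.58.1 with robust, trended variance compared normal scores of within-library percentiles, without a replicate block. It was tested on simulated scores without ties and with shifts larger than any reported here. That test does not show how limma handles the ties of these data or smaller shifts. Shares were compared with two-sided exact permutation tests over samples, which measure only the spread between these libraries. Alternatives were lists of 20000, ties at random, other distances, extensions, filters and weights, and each library left out.

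The members and gene lists were chosen with earlier results of these data known. Regions were named by a rule: the 6 of highest mean percentile, 5 per direction by limma p, the highest beside each of up to 10 macrophage transcription factor genes, the 3 farthest from genes, the 3 largest clusters, 2 on each side of the distance limit, 3 with most IgG libraries and up to 3 kept in 1 treatment only. Other names were chosen after their values were seen.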

Additional observations from a re-analysis of the deposited data

Results flagged for a closer look

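In 55 groups of 4 pracinostat libraries, the gap of the highest or lowest library to the next was compared with the group's range. In 10 groups 1 library stood far from the other 3. The rule leaves every far intergenic region out of at least 1 kept list, and many of these groups were picked by their values. A rate given by chance therefore cannot be set beside the 10. Pracinostat replicate 3 had a summit anywhere in its list in 953 far intergenic regions, the lowest of its group. Kept summits were highest in pracinostat replicate 4 for Trib1 to 4933412E24Rik (28) and in pracinostat replicate 2 for Cebpb to Ptpn1 (45). Percentiles lay lowest in pracinostat replicate 4 for a region between Irf2bp2 and Tomm20 (52.7), for the region beside Jun (45.6) and for that between Agtr1b and Tbl1xr1 (49.2). In pracinostat replicate 3 they lay lowest between Nxph1 and Ndufa4 (68.8) and between Tbc1d1 and Gm38457 (50.6), and in pracinostat replicate 1 between Myo16 and Irs2 (36.4). Pracinostat replicate 1 lay highest between Fgd2 and Pim1 (54.3). No explanation was tested.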

How the results depend on the processing

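limma called 0 far intergenic regions at an adjusted p under 0.05 in each of 14 alternatives, and the 10 regions with the smallest p kept their direction in each alternative that could be fitted. Regions at an unadjusted p under 0.05 numbered 47 higher and 13 lower in the reported fit. They were 30 and 20 with summit count as a covariate, 73 and 7 without the filter on libraries, 9 and 8 (of 641) with lists limited to 30000, 116 and 43 at 20 kb, and 25 and 5 at 100 kb. Leaving out each library gave 28 to 71 higher and 8 to 23 lower. Libraries with the same replicate number were hardly correlated once group means were taken off (correlations of -0.00943, -0.0204 and -0.0230). That cannot settle whether they shared an animal or a day. The replicate block, which leaves pracinostat replicate 4 without a partner, gave 46 and 16, and 0 called. Regions kept with pracinostat only were 1 with 20000 kept, 6 with random ties, 11 at 20 kb and 5 to 18 with a library left out, against 3. With DMSO only there were 2 with 20000 kept, 2 with random ties, 2 with 100 bp of extension, 8 at 20 kb, 1 at 100 kb and 4 to 26 with a library left out, against 4. The number of far intergenic regions itself was 709 with 20000 kept, 2124 at 20 kb and 514 at 100 kb. The far share by treatment turned sign in the whole lists (0.537) and ranged from -1.17 to 0.0517 percentage points with a library left out. The IgG difference between far and near regions was -0.00763 at 20 kb, -0.136 at 100 kb and -0.0646 with 20000 kept, and -0.0183 to 0.0759 with a library left out. By treatment the IgG share differed by -0.117 to 0.211 percentage points with a library left out. The causes of these changes were not tested. Reads per library, and thus depth, are unknown. Ties in DMSO replicate 2 and its short list limit the H3K27ac comparisons of treatments here, and ranks cannot show a change common to all regions.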

Other observations

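Among IgG summits, the share more than 50 kb from a protein-coding gene was 35.5%, 33.4% and 36.0% in DMSO replicates 1 to 3 and 30.1%, 32.7%, 31.2% and 30.3% in pracinostat replicates 1 to 4, so the treatments did not overlap. The comparison was picked after the values were seen and carries no test. The DMSO IgG lists held 18517, 9244 and 10191 summits and the pracinostat ones 2572, 10186, 6077 and 2194, and the part of list length in the shares was not tested.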
